A study of Mus musculus with 23 samples.

Results

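Transcript levels of 5 genes of fructose uptake and fructolysis, out of 55416 genes in the count tables, were compared in the proximal small intestine of 23 mice. The genes were chosen by name for their place in the route: the fructose carrier Slc2a5 (ENSMUSG00000028976), the ketohexokinase gene Khk (ENSMUSG00000029162), the triokinase gene Tkfc (ENSMUSG00000034371), the glycerate kinase gene Glyctk (ENSMUSG00000020258) and the aldehyde dehydrogenase gene Aldh1b1 (ENSMUSG00000035561). All 5 passed the filter on low counts, which left 13405 genes for testing. Per library they had between 339 and 23139 counts.

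The mice were of the C57BL/6JRccHsd strain and labelled female. At 21 days of age, after weaning, they were assigned to 1 of 2 pelleted diets that matched in all but the sugar. The galactose diet (12 mice) drew 16% of its energy from galactose and 16% from glucose, and the glucose diet (11 mice) drew 32% from glucose. RNA came from scrapings taken at 42 days, after 3 weeks on the diet, 1 library per mouse. The sources used here do not give the fructose content of either diet. A scraping holds several cell types, so fewer cells of a type and less RNA per cell cannot be told apart.

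Dietary fructose enters the enterocyte, the absorptive cell of the villus, through the apical carrier GLUT5, encoded by Slc2a5. Ketohexokinase (Khk) phosphorylates it to fructose-1-phosphate, which is split into dihydroxyacetone phosphate and glyceraldehyde. Triokinase (Tkfc) phosphorylates the glyceraldehyde. In a side branch, an aldehyde dehydrogenase (Aldh1b1 encodes a mitochondrial member of that family) oxidises glyceraldehyde to glycerate, which glycerate kinase (Glyctk) returns to glycolysis. The small intestine is known to clear much of a modest fructose load by this route, and the carrier and the first enzymes are known to be induced when the gut lumen holds fructose.

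The promoters of 3 of the genes are shown because the levels of Khk and Tkfc varied together among the mice, while no such relation was detected for Slc2a5. Each run is the 250 bases before the annotated start, from RefSeq (build GRCm38.p6, a different build from that of the counts), read 5′ to 3′ on the strand of the gene, and capitals mark matches to a motif that was searched.
Khk promoter, chr5:30921309-30921558, plus strand: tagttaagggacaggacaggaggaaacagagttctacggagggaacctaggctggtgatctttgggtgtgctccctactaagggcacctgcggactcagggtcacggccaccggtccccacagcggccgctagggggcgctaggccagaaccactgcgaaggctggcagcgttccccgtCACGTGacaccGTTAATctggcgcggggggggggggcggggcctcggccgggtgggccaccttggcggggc
Tkfc promoter, chr19:10604259-10604508, minus strand: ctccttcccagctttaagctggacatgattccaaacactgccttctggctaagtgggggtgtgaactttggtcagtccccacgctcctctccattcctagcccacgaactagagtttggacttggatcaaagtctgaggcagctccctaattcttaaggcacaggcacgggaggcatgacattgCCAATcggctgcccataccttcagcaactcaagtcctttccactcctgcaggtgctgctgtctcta
Slc2a5 promoter, chr4:150119094-150119343, plus strand: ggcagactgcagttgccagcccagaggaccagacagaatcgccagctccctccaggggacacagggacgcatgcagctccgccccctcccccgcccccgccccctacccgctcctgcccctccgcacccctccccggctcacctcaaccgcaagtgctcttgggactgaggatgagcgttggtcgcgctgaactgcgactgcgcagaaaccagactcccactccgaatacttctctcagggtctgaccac

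The motifs searched on both strands were CACGTG (an E-box), GTTAAT (the half-site of the HNF1 factors), TATAAA and CCAAT. Also searched was a strict pattern for the carbohydrate response element, a pair of E-boxes CANNTG with 5 bases between them. The capitals in the Khk promoter are a CACGTG, 65 bases before the start, and a GTTAAT, 54 bases before it. CACGTG occurs in 6.02% of 32817 promoters of the same length and GTTAAT in 6.44%. The Tkfc promoter has CCAAT 61 bases before the start, a motif of 33.8% of promoters, and the Slc2a5 promoter has no match to any of the motifs. Of the promoters not printed, that of Glyctk has CCAAT and a minus-strand GTTAAT, and that of Aldh1b1 has no match. The strict pattern for the carbohydrate response element, in 0.64% of promoters, and TATAAA, in 12.4%, are in none of the 5 windows. An element with a mismatch in an E-box would be missed by that pattern. The Khk and Slc2a5 promoters are rich in G and C (67.2% and 66.4%, against a median of 52.4% over all promoters), and that of Tkfc is not (52.8%). The matches describe these windows only and were not tested against the counts.

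Khk and Tkfc were the most abundant of the 5 transcripts per length, and Glyctk the least. Levels here are CPM (counts of the gene relative to the TMM-scaled total of the library) divided by the length in kb of the longest annotated transcript, as mean ± SD. On galactose they were 466 ± 65.7 CPM per kb for Khk, 395 ± 71.2 for Tkfc, 117 ± 18.5 for Aldh1b1, 83.0 ± 22.4 for Slc2a5 and 6.83 ± 1.08 for Glyctk (n = 12). On glucose the order was the same, with 355 ± 55.1 for Khk, 321 ± 62.0 for Tkfc, 124 ± 23.6 for Aldh1b1, 75.9 ± 12.1 for Slc2a5 and 7.19 ± 1.01 for Glyctk (n = 11). Khk and Tkfc overlapped in range in each diet, as did Aldh1b1 and Slc2a5, whereas the gaps from Tkfc to Aldh1b1 and from Slc2a5 to Glyctk had no overlap. Within libraries, Khk lay above Tkfc in 11 of 12 on galactose and in 9 of 11 on glucose. The order rests on the transcript length taken for each gene.

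The libraries held 15382583 to 17174721 counts in genes. Markers of enterocytes, 11 genes including Vil1, Alpi and Fabp2, made up 7.53 ± 0.555% of counts on galactose and 7.55 ± 0.720% on glucose (SD). Apoa4 and Apoa1 had the most counts of that list. By edgeR 6 of the 11 were higher on galactose and 5 lower in estimate, so the near-equal shares do not show equal enterocyte content. Of 9 pancreatic acinar markers, Prss1 and Amy2a5 were at 0 in every library, and the list's share reached 0.0507% in 1 galactose library. Hepatocyte markers, which matter because the liver runs the same route, were at most 0.000403% of counts, with Fgb at 0. Galactose replicate 12 (replicates are numbered in the order of deposit) went against its label: it had 4 counts of Xist, where the other libraries had a median of 1518, and 225 counts of 4 Y-linked genes, where the others had at most 1. Without it, the edgeR log2 differences were 0.40 for Khk, 0.29 for Tkfc, 0.16 for Slc2a5, -0.08 for Glyctk and -0.10 for Aldh1b1, close to the values with it given below.

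Khk was higher on galactose by 1.31-fold, Tkfc by 1.23-fold, and the other 3 genes had log2 differences between -0.08 and 0.13. None of the 5 passed the test across all genes. In that test (edgeR quasi-likelihood F test, Benjamini-Hochberg adjustment) 0% of the 13405 genes passed an adjusted p of 0.05. An unadjusted p under 0.05 was reached by 1157 genes on the galactose side (8.63%), Khk and Tkfc among them, and by 767 on the glucose side (5.72%). DESeq2 called 126 genes and limma-voom called 0. In no gene did the diet groups separate without overlap (0%). The 5 genes were picked with earlier results of these data known, so their share past a p is not independent evidence.

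Khk, which starts fructolysis, ran from 545 to 848 CPM on galactose, with a median of 764, and from 439 to 707 CPM on glucose, with a median of 579. Of the galactose libraries, 11 of 12 lay above the glucose median and 8 above the highest glucose library, and 5 of 11 glucose libraries lay below the lowest galactose library. The other 4 galactose libraries, replicates 7, 1, 12 and 4 from the lowest up, lay within the glucose range, whose highest library was glucose replicate 7. Means were 737 ± 104 CPM (n = 12) and 562 ± 87.2 CPM (n = 11), a log2 difference of 0.39 ± 0.09 (SE, 95% interval 0.21 to 0.57). With an edgeR p of 0.000121 Khk ranked 8 of 13405, at an adjusted p of 0.135, the smallest of any gene and shared with Fbp1, among others.

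The call on Khk turned on the fit. It passed in DESeq2 (log2 difference 0.39, adjusted p = 0.0127, where 1.2% of genes passed on the galactose side), in limma-voom with sample quality weights (0.43, adjusted p = 0.0323, 1.06% of genes) and in edgeR with a crypt and cycling score held (0.39, adjusted p = 0.0490, 0.507% of genes). It also passed in edgeR without galactose replicate 7 (0.43, adjusted p = 0.0298, 1.31% of genes), and not without replicate 12 (0.40, adjusted p = 0.104, 0% of genes). With the length slope of each library held, explained below, the difference was 0.20 (edgeR p = 0.0174, adjusted p = 0.738). In that fit 0 genes passed, and the smallest adjusted p of any gene was 0.736. With 6 surrogate variables the difference was 0.21 (edgeR p = 0.00227, adjusted p = 0.479). There, too, 0 genes passed, with a smallest adjusted p of 0.0539.

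Tkfc, which takes up the glyceraldehyde that fructolysis yields, ran from 860 to 1521 CPM on galactose (median 1030) and from 651 to 1176 CPM on glucose (median 861). The highest levels were in galactose replicates 2 and 3 (1521 and 1393 CPM). Of the galactose libraries 11 of 12 lay above the glucose median, but only 3 above the highest glucose library, so the overlap was wider than for Khk. Means were 1088 ± 196 CPM and 886 ± 171 CPM, a log2 difference of 0.30 ± 0.10 (95% interval 0.09 to 0.51, edgeR p = 0.00767, adjusted p = 0.205). Held to the length slope, the difference was 0.19 (edgeR p = 0.114, adjusted p = 0.814). It was 0.18 with surrogate variables (edgeR p = 0.0491, adjusted p = 0.730). Exons of Tkfc overlap those of Cyb561a3 and Ddb1 on the opposite strand, and the strand setting of the counting is not known.

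Slc2a5, the carrier, was listed at 181 to 405 CPM on galactose (median 257) and 185 to 297 CPM on glucose (median 230). The ranges started at the same level, and 4 galactose libraries went past the top of the glucose range, led by replicate 8 (405 CPM) and replicate 3 (345 CPM). The coefficient of variation was 26.9% on galactose and 15.9% on glucose, a difference that was not tested. Mean levels were 262 ± 70.6 CPM and 240 ± 38 CPM, a log2 difference of 0.13 ± 0.12 (95% interval -0.12 to 0.38, edgeR p = 0.299, adjusted p = 0.657). Without replicate 8 the difference was 0.06, and with the length slope held it was 0.02. The interval does not show that the diets gave the same level.

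Glyctk and Aldh1b1, the genes of the glycerate branch, overlapped over nearly their whole ranges. Glyctk ran from 22.7 to 36.7 CPM on galactose (median 27.2) and from 24.6 to 38.9 CPM on glucose (median 29.4), and 5 of 12 galactose libraries lay above the glucose median. Its means were 28.7 ± 4.55 CPM and 30.3 ± 4.25 CPM, a log2 difference of -0.07 ± 0.08 (95% interval -0.25 to 0.10, edgeR adjusted p = 0.722). Of its 4229 exon bases, 2203 overlap D030055H07Rik on the opposite strand, so its level is uncertain. Aldh1b1 ran from 187 to 328 CPM on galactose (median 280) and from 208 to 365 CPM on glucose (median 270). Its means were 268 ± 42.6 CPM and 284 ± 54.1 CPM, a log2 difference of -0.08 ± 0.10 (95% interval -0.29 to 0.12, edgeR adjusted p = 0.748). For each gene the interval holds differences of either sign.

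**Figure D1:**
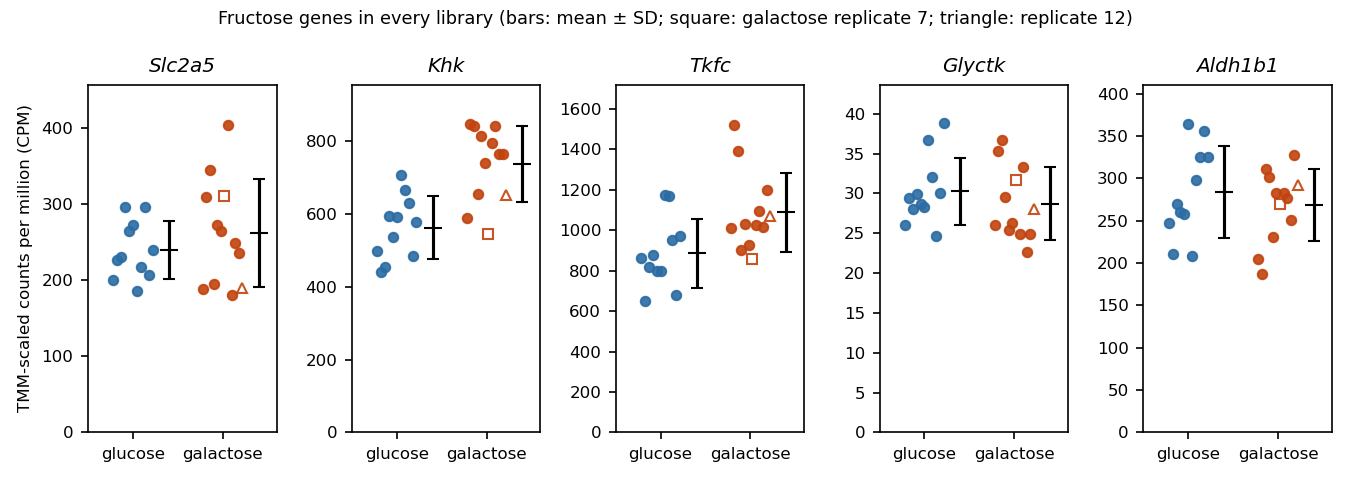
Level of each of the 5 genes in every library, in TMM-scaled CPM (vertical axes from 0), with glucose libraries in blue and galactose libraries in orange; black bars are mean ± SD, the open square is galactose replicate 7 and the open triangle galactose replicate 12. For Khk, 8 of 12 galactose libraries lie above all glucose libraries, while the diets overlap over most of the range for Slc2a5, Glyctk and Aldh1b1.

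Whether the genes differed by diet to unequal extent was asked with the log2 ratio of 2 genes within each library, which does not depend on scaling. Over the 10 pairs (two-sided permutation test of the diets, 100000 resamples, Benjamini-Hochberg over the pairs) the ratio differed for 3. All 3 hold Khk or Tkfc, neither of which passed the edgeR test across all genes. The adjustment covers only these pairs, of genes picked with earlier results of these data known. The share of other gene pairs that would pass was not computed. Khk over Glyctk was higher on galactose by 0.47 ± 0.11 (SE, adjusted p = 0.0043, above the glucose median in 11 of 12 libraries). Khk over Aldh1b1 was higher by 0.47 ± 0.14 (adjusted p = 0.00857, 12 of 12 libraries), and Tkfc over Glyctk by 0.38 ± 0.10 (adjusted p = 0.00857, 11 of 12). The kinase genes Khk and Tkfc thus stood higher relative to Glyctk on galactose, but neither ratio passed with the length slope held.

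For the 2 kinases against each other no difference was detected, with Khk over Tkfc at 0.09 ± 0.07 (adjusted p = 0.319). Slc2a5 over Khk was at -0.30 ± 0.14 (adjusted p = 0.101), with only 2 of 12 galactose libraries above the glucose median, and Tkfc over Aldh1b1 at 0.38 ± 0.16 (adjusted p = 0.0733). Without galactose replicate 7, or without glucose replicate 7, 5 pairs passed, those last 2 included. With the length slope of each library held, no pair passed (0 of 10), and the 3 differences were 0.22, 0.39 and 0.21 in the order given.

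Khk and Tkfc varied together from mouse to mouse. Over the 23 libraries their log2 CPM had r = 0.83 and rho = 0.86 (permutation p = 1e-05 for each, the smallest that 100000 resamples can give). With each diet's mean taken off, r was 0.76 (permutation p = 5e-05, adjusted over 10 pairs 0.0005) and rho 0.80 (adjusted p = 0.0002). It was 0.66 within galactose and 0.86 within glucose. Without the 2 libraries farthest from the median of Khk, glucose replicates 2 and 3, r was 0.79, and 0.74 with the diet means off. Leaving out each library in turn gave 0.73 to 0.78 with the diet means off. Glucose replicate 7 had the highest Khk and Tkfc of its group, and glucose replicate 2 the lowest of each.

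A coefficient this high was uncommon but not rare: 0.761% of tested genes had at least that r with Khk, and 0.261% with Tkfc. All genes in a library share its depth, cell makeup and RNA quality, and the part of these in the co-variation was not tested beyond the alternatives given.

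The other 9 pairs did not pass. No relation was detected between the carrier and the enzyme that acts after it, with r = 0.23 between Slc2a5 and Khk after taking off diet means (rho = 0.26, permutation p = 0.297, adjusted p = 0.742). With the length slope taken off too, r was 0.02. Slc2a5 and Tkfc had r = 0.09. The next highest pair was Tkfc and Glyctk, with r = 0.46 (permutation p = 0.0308, adjusted p = 0.154), and Aldh1b1 followed none of the others (r between -0.14 and 0.13). With each library's length slope taken off as well, 3 pairs passed: Khk and Tkfc (0.79), Khk and Glyctk (0.61, adjusted permutation p = 0.0082) and Tkfc and Glyctk (0.59, adjusted p = 0.011).

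**Figure D2:**
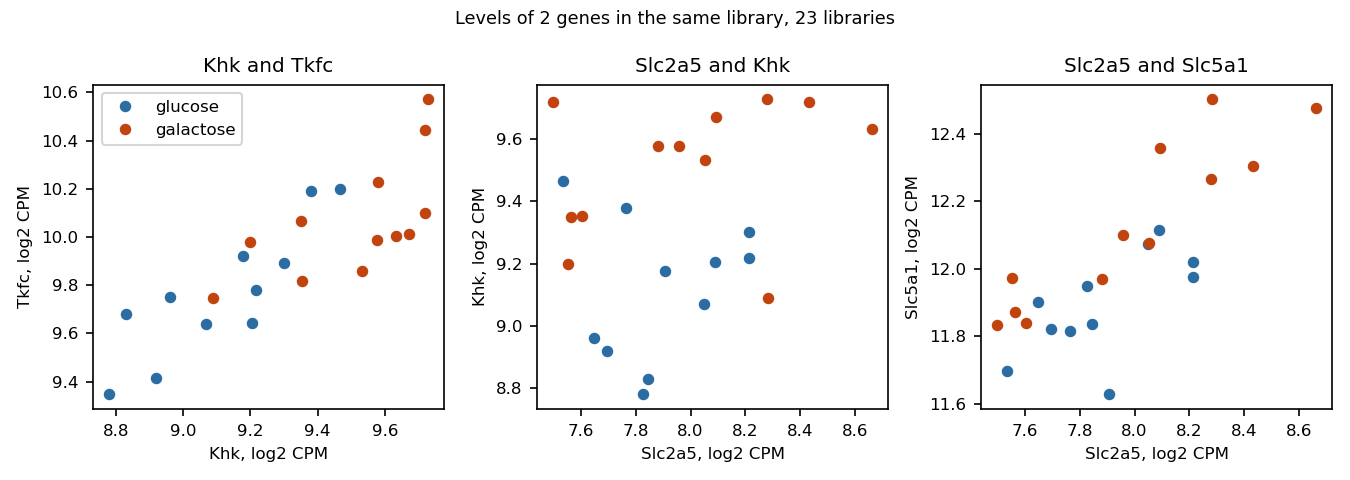
Each point is 1 library (blue glucose, orange galactose) and both axes are log2 CPM. Khk and Tkfc rise together over the 23 libraries (r = 0.83 as plotted and 0.76 after taking off diet means). Slc2a5 and Khk had r = 0.28 as plotted and 0.23 after taking off diet means. Slc2a5 and Slc5a1 follow each other closely (r = 0.85 after taking off diet means).

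Other genes of hexose handling were taken from 6 lists of 38 genes, of which 37 were tested and 36 had at least 1 CPM. By edgeR 26 were higher on galactose and 11 lower in estimate, with a median log2 difference of 0.12, against 49.5% higher and a median of -0.00 over all tested genes. None passed an adjusted p of 0.05, and an unadjusted p under 0.05 was found for 10 of 37 on the galactose side and 3 on the glucose side, against 8.63% and 5.72% of all tested genes. The lists were chosen with earlier results of these data known, so these counts are not independent evidence. Log2 differences below are ± SE. Differences with the length slope held, explained below, are given for the 5 genes only. Transcripts of Fbp1, Aldoa and Tpi1, all higher in estimate, are short (1479, 1549 and 1607 bases). Those of Gk, Gpd1l and Nr3c1, all lower, are long (4340, 4391 and 6436 bases). Slc5a1 and Sis were higher with long transcripts (4104 and 5953 bases). The part of transcript length in the differences of the listed genes was not tested.

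The list of the gluconeogenic exit, genes of enzymes and of a carrier on the way from oxaloacetate to glucose, had the highest median, 0.29, with 4 of 5 genes higher. Fbp1, fructose bisphosphatase, had means of 137 ± 28.5 CPM for galactose and 91.4 ± 20.3 CPM for glucose, with a log2 difference of 0.59 ± 0.12 (edgeR p = 3.77e-05, adjusted p = 0.135). All 12 galactose libraries lay above the glucose median for Fbp1. Fbp2, another fructose bisphosphatase gene with a higher mean level (318 CPM against 115), differed by 0.12 ± 0.06 (edgeR adjusted p = 0.310). Slc37a4, the carrier of glucose-6-phosphate into the endoplasmic reticulum, differed by 0.31 ± 0.08 (adjusted p = 0.138) and G6pc, the glucose-6-phosphatase gene, by 0.29 ± 0.16 (adjusted p = 0.394). Pck1, which makes phosphoenolpyruvate from oxaloacetate, was at -0.37 ± 0.22 (adjusted p = 0.442).

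Of 12 genes of the triose and glyceraldehyde steps, 8 were higher and 4 lower, with a median of 0.12. Aldoa, an aldolase, was at 0.22 ± 0.06 (adjusted p = 0.138) with all 12 galactose libraries above the glucose median, and Tpi1, which interconverts the triose phosphates, at 0.16 ± 0.06 (adjusted p = 0.243). On the lower side were Gk, glycerol kinase, at -0.21 ± 0.07 (adjusted p = 0.173), with none of 12 galactose libraries above the glucose median, and Gpd1l at -0.18 ± 0.07. Gpd1, the cytosolic glycerol-3-phosphate dehydrogenase, was at 0.19 ± 0.08. Adh5 was at 0.15 ± 0.06.

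Of 6 other hexose carriers tested, 5 were higher and 1 lower, with a median of 0.14. Slc5a1, which encodes SGLT1 and brings glucose and galactose in with sodium, was at 0.25 ± 0.09 (adjusted p = 0.203), Slc2a7 at 0.24 ± 0.14 and Slc2a2, the basolateral carrier GLUT2, at 0.14 ± 0.09. Slc2a12 was too low to test (0.0108 CPM). Among 5 other hexose kinases the median was 0.04 and Hkdc1 was at 0.15 ± 0.06. Among the 3 genes that free or make fructose, Sis, the sucrase-isomaltase gene, was at 0.16 ± 0.09, Sord, sorbitol dehydrogenase, at -0.13 ± 0.10 and Akr1b3, aldose reductase, at 0.26 ± 0.12.

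Of 6 known regulators, Mlxipl, which encodes the carbohydrate sensor ChREBP that drives fructolysis genes, was at 0.09 ± 0.06 and its target Txnip at 0.03 ± 0.06. Nr3c1, the glucocorticoid receptor gene, was at -0.20 ± 0.06 (edgeR adjusted p = 0.162), with none of 12 galactose libraries above the glucose median. The median of the regulators was 0.05.

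**Figure D3:**
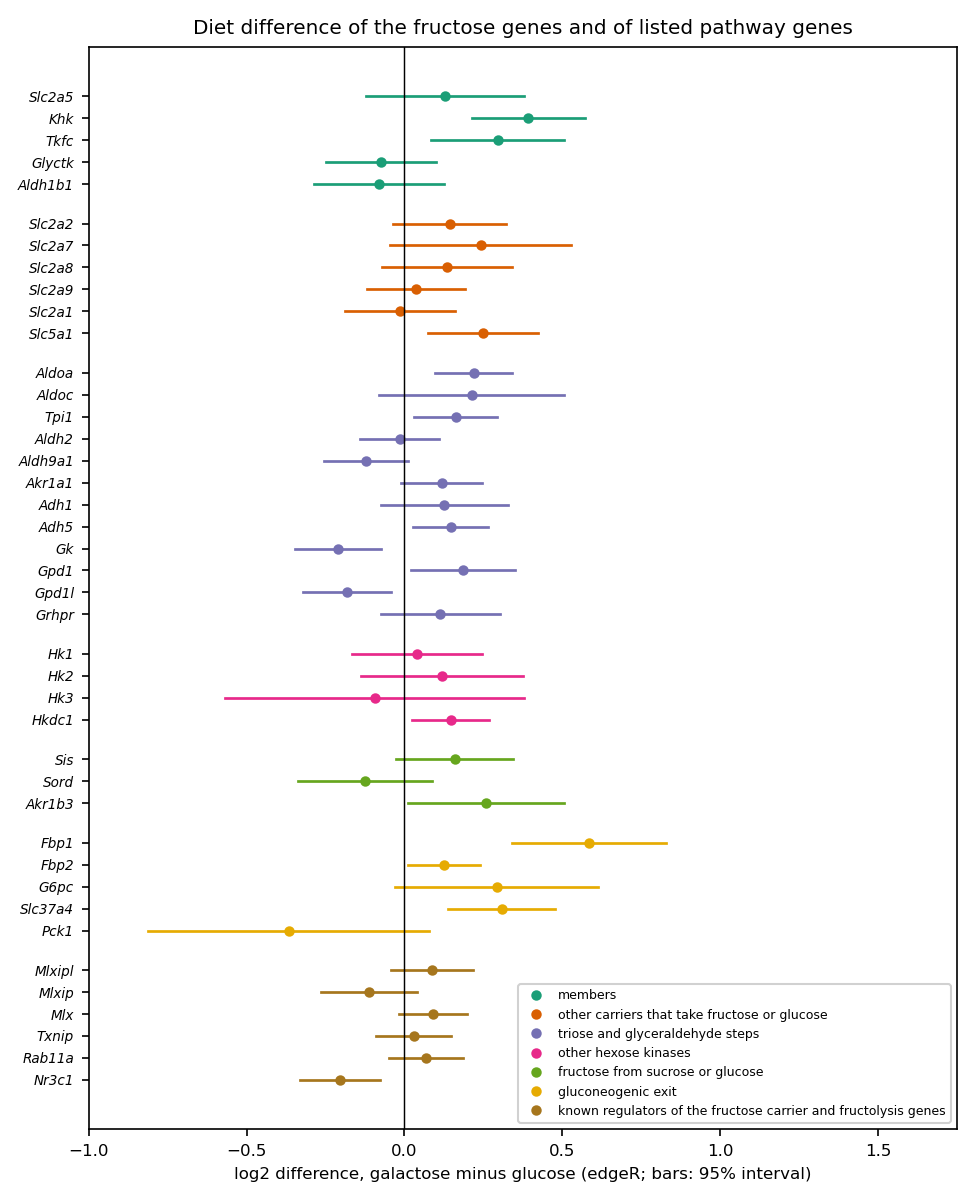
Log2 difference, galactose minus glucose (horizontal axis), of the 5 fructose genes ("members" in the legend) and of 36 listed pathway genes of at least 1 CPM, from the edgeR fit; points are estimates, bars 95% intervals and colours the lists. Fbp1 (0.59) and Khk (0.39) lie farthest to the right, and Pck1 (-0.37) farthest to the left with an interval that crosses 0.

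Relations of the 5 genes with the listed genes were counted next. Over 185 relations of the 5 genes with the 37 listed genes (log2 CPM after taking off diet means, permutation p, Benjamini-Hochberg over the 185), 21 passed, 19 of them positive, all at an absolute r of at least 0.579. Spearman's rho passed in 17 of these. Slc2a5 had 5 positive relations, Khk 6 and 1 negative, Tkfc 8, Glyctk none and Aldh1b1 1 negative. Among all tested genes, r reached 0.579 in 0.828% with Slc2a5, 4.95% with Khk, 2.95% with Tkfc, 1.2% with Glyctk and 2.54% with Aldh1b1. It was negative and of at least that size in 3.41% with Khk and 2.3% with Aldh1b1. For each of these 2 genes, 1 negative relation among the 37 listed genes is near that share.

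Slc2a5 varied together with 3 of the 6 other carriers tested, Slc5a1, Slc2a7 and Slc2a2, and not detectably with Slc2a9 (r = 0.32), Slc2a1 (0.06) or Slc2a8 (-0.15). With Slc5a1 it had r = 0.85 (rho = 0.82, adjusted permutation p = 0.000463, 0.91 within galactose, 0.65 within glucose and 0.81 without the 2 farthest libraries). With Slc2a7, a hexose carrier of the same transporter class, r was 0.79 (rho = 0.79, 0.80 within each diet). With Slc2a2 it was 0.64 and with Gpd1 0.71, in each case higher within galactose (0.83 and 0.84) than within glucose (0.28 and 0.28), a difference that was not tested. Adh1 was the fifth, with r = 0.61. Hkdc1, a hexokinase family gene, just missed (r = 0.62, adjusted permutation p = 0.0512), though its rho passed (0.66, adjusted p = 0.0292) and so did its r with the length slope taken off (0.68, adjusted p = 0.0228). The relations with Slc5a1, Slc2a7, Slc2a2 and Gpd1 passed with the length slope taken off too, an alternative chosen after seeing the data for the listed genes, and that with Adh1 did not (r = 0.56, adjusted permutation p = 0.0531).

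Since Khk and Tkfc had r = 0.76 with each other after taking off diet means, shared partners are not separate evidence. The share of all tested genes that pass with both was not counted. Khk and Tkfc shared 5 listed partners, 5 of the 6 that were positive with Khk and 5 of the 8 of Tkfc. These were Fbp1 (r = 0.79 with Khk and 0.81 with Tkfc), Tpi1 (0.82 and 0.72), Slc37a4 (0.78 and 0.71), Grhpr, glyoxylate and hydroxypyruvate reductase (0.74 and 0.78), and Aldoc, an aldolase (0.66 and 0.82). All 10 of these relations also passed with the length slope taken off. With Fbp1, r was 0.75 within galactose and 0.83 within glucose for Khk, and 0.76 and 0.84 for Tkfc. Fbp2 passed with neither gene (r = 0.44 with Khk and 0.17 with Tkfc). Tkfc had further relations with Aldh2 (0.60), Aldoa (0.59) and Gpd1 (0.58, a partner of Slc2a5 too), and Khk with Akr1a1 (0.74) and, negatively, Mlxip (-0.69), a paralogue of the ChREBP gene. With the length slope taken off, those of Aldoa (0.51), Gpd1 (0.54), Akr1a1 (0.37) and Mlxip (-0.41) no longer passed. The sole partner of Aldh1b1 was G6pc (r = -0.60, rho = -0.49, adjusted p = 0.0246 for r and 0.123 for rho).

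**Figure D4:**
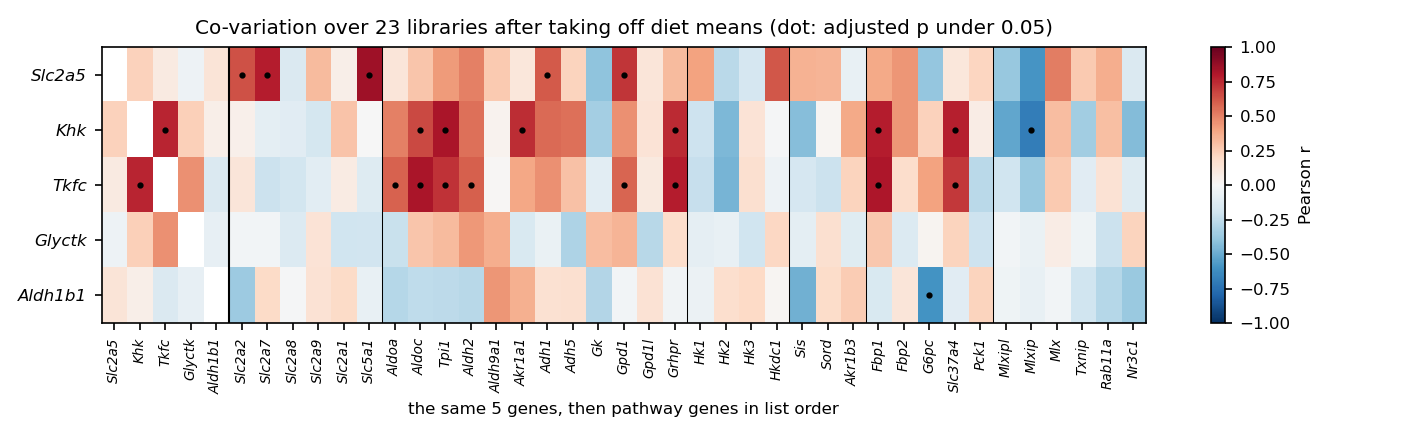
Pearson r over 23 libraries after taking off diet means, of the 5 fructose genes (rows) with each other and with 36 listed genes (columns, thin lines part the lists in the order carriers, triose steps, hexose kinases, fructose sources, gluconeogenic exit, regulators); red is positive, blue negative, a dot marks an adjusted permutation p under 0.05 and white squares on the diagonal are a gene with itself. Of the 5 dots of Slc2a5, 3 fall on carriers, and those shared by Khk and Tkfc on triose steps, Fbp1 and Slc37a4.

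A measure of how the counts of a library lean toward short or long transcripts moved with Khk. To get it, each gene's log2 CPM in a library was centred on that gene's mean over the libraries and regressed on log2 transcript length. This length slope comes from the same counts, with no separate record of RNA quality, so what sets it cannot be told. A low value of the length slope means relatively more counts in short transcripts. It was -0.0289 ± 0.0553 on galactose and 0.0315 ± 0.0450 on glucose (SD, two-sided permutation p = 0.0107, adjusted over 17 library measures 0.182). Over the 23 libraries, with diet means taken off, Khk had r = -0.73 with it (rho = -0.73, adjusted permutation p = 0.0034 over 20 relations, and r = -0.73 without the 2 farthest libraries). Within galactose r was -0.84 and within glucose -0.58. Galactose replicate 7, the lowest in Khk of its group, had the highest slope of that group (0.0795). Khk has the shortest transcript of the 5 genes, 1583 bases, against 2298 for Aldh1b1, 2758 for Tkfc, 3158 for Slc2a5 and 4209 for Glyctk.

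Tkfc had r = -0.35 with the length slope, Slc2a5 -0.30, Aldh1b1 -0.36 and Glyctk 0.24, none past the adjusted threshold. The part of the length slope in the diet difference of Khk was not tested beyond the fit that holds it, given above. Aldh1b1 went with a score of crypt and cycling genes (r = 0.65, adjusted permutation p = 0.0129), but its rho did not pass (0.51, adjusted p = 0.160) and r was 0.46 without the 2 farthest libraries. Goblet cell markers took 0.732 ± 0.108% of counts with galactose and 0.846 ± 0.119% with glucose (SD, permutation p = 0.0268, adjusted p = 0.228). That list was mixed, with 2 of 6 genes higher on galactose and 4 lower in estimate. T cell markers took 0.0175 ± 0.00601% and 0.0128 ± 0.00517% (permutation p = 0.0564, adjusted p = 0.314), with 6 of 6 genes higher on galactose in estimate and a median log2 difference of 0.38. B and plasma cell genes (4 of 4 tested) were higher in estimate too, with a median of 0.54, and their share did not pass (permutation p = 0.746). Paneth (5 of 5), smooth muscle (6 of 6) and fibroblast genes (5 of 5 tested) were lower in estimate, with medians of -0.23, -0.23 and -0.21, and their shares did not pass either (permutation p of at least 0.308). The part of these cell types in the results was not tested.

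**Figure D5:**
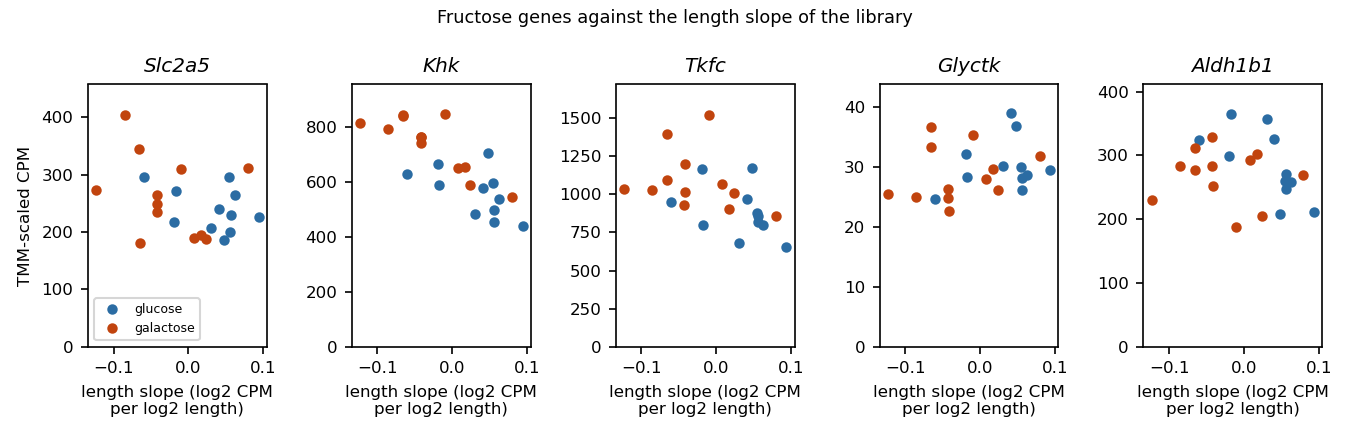
CPM of each of the 5 genes (vertical axes from 0) against the length slope of the library (horizontal axis, log2 CPM per log2 length), with glucose in blue and galactose in orange. Khk falls as the slope rises in each diet (r = -0.73 after taking off diet means), and for the other genes r lies between -0.36 and 0.24.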

How the data were processed

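RNA-seq libraries of 12 mice fed galactose and 11 fed glucose were analysed. Per the submitters' processing notes, the authors used STAR and HTSeq on GRCm39. For versions, annotation release and strand setting the sources used here give nothing. Raw read counts per gene, 1 table a mouse, are what the authors deposited. The 5 rows that name no gene (13.5% of reads) were left out. Symbols were matched by identifier for 52083 of 55416 rows, and lengths come from GENCODE M21 by identifier. Libraries of a diet differed by a chi-square per degree of freedom of 12.9 to 51.3 over 121 pairs, so none was a copy.

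Counts were tested with edgeR 4.0.16 (R 4.3.3; filterByExpr, TMM, quasi-likelihood F test with diet as the term, Benjamini-Hochberg over 13405 genes, threshold 0.05). SE is the log2 difference over the root of F. Log2 CPM carry a prior count of 2. Correlations and ratios used two-sided permutation tests in Python 3.11.15 (numpy 2.4.6). The test scripts were tested on simulated data. Alternatives were other scalings and filters, covariates, surrogate variables (sva 3.50.0), DESeq2 1.42.0, limma 3.58.1 and leaving out each library. The genes and lists were chosen with earlier results of these data known. Genes named are the 5 genes, listed pathway genes of at least 1 CPM, and for each of the 5 the 5 genes with the highest and the 3 with the lowest r among those of at least 10 CPM, without predicted genes. Some genes that these choices take are not reported here.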

Additional observations from a re-analysis of the deposited data

How the results depend on the processing

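Over 15 other fits the log2 diet difference kept its sign for all 5 genes, with ranges of 0.20 to 0.43 for Khk, 0.18 to 0.32 for Tkfc, 0.02 to 0.14 for Slc2a5, -0.12 to -0.01 for Glyctk and -0.18 to -0.00 for Aldh1b1. Khk passed in 3 of them: DESeq2 (0.39), quality weights (0.43) and the crypt and cycling score held (0.39). The count of genes called was 0 in edgeR, 126 in DESeq2, 167 with quality weights and 115 with that score held. Leaving out each library in turn gave 0.36 to 0.43 for Khk, 0.24 to 0.34 for Tkfc, 0.06 to 0.17 for Slc2a5, -0.12 to -0.03 for Glyctk and -0.12 to -0.04 for Aldh1b1, and 0 to 219 genes called, with 219 and Khk (0.43) called without galactose replicate 7. Pairs whose ratio differed numbered 3 as reported, 3 to 5 over the libraries left out (5 without galactose replicate 7 and 5 without glucose replicate 7) and 0 with the length slope taken off. Pairs that varied together numbered 1, also with each library left out (1 to 1), and 3 with the length slope taken off. The causes were not tested. No paired analysis was possible because the labels number the mice singly and no number is shared by the diets. Glyctk, with 339 counts in its lowest library, has the least depth of the 5.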

Other observations

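The genes whose levels ran closest to each of the 5 over the 23 libraries, after taking off diet means and among 7549 genes of at least 10 CPM, were of different kinds. They are a description of these libraries, which share depth, cell makeup and RNA quality, and carry no test. For Slc2a5 they included Slc5a4a (r = 0.87, uncertain because of its close copy Slc5a4b), the sugar carrier gene Slc5a1 (0.85), Atp1b1 (0.82), and Got1, a cytosolic aminotransferase (0.80). The lowest r with Slc2a5 were those of Irf2bp2 (-0.80), Kbtbd2 (-0.78) and St5 (-0.75). For comparison, 95% of all tested genes had an r with Slc2a5 below 0.40.

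For Tkfc the closest were Got2, a mitochondrial aminotransferase (0.89), the glycolytic kinase gene Pgk1 (0.89), Pgrmc2 (0.88), the mitochondrial 2-oxoglutarate carrier Slc25a11 (0.87) and the respiratory chain subunit Uqcrfs1 (0.86), and the cholesterol exporter gene Abca1 was the lowest (-0.82), before Sestd1 (-0.79) and Eef2k (-0.78). These values lay between 0.85 and 0.88 in size for the first 5 with the length slope taken off, which was also added after seeing the data. For Khk they were Marc2 (0.91), the respiratory chain subunit Ndufs3 (0.89), Mien1 (0.89), Timm13 (0.88) and Mrps34 (0.87), the last 2 being genes of mitochondrial import and translation, and the lowest were Zyg11b, Apaf1 and Ptbp3 (-0.82 each). With the length slope taken off, Timm13 stood at 0.71 and Zyg11b at -0.61. Glyctk ran closest to Sardh (0.80), a mitochondrial sarcosine dehydrogenase, Fam3a (0.80), Tymp (0.77), Crat (0.75) and Fbxw5 (0.75), and lowest with Vdac3 (-0.78), Nr2c1 (-0.71) and E2f5 (-0.70). Aldh1b1 ran closest to Traf4 (0.79), the carbonic anhydrase gene Car4 (0.78), Rpl29 (0.76), Prpsap1 (0.75) and Mgst1 (0.75), and lowest with Stim2 (-0.88), Apobec1 (-0.83) and Ahr, the aryl hydrocarbon receptor gene (-0.81).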
